A study of Mus musculus with 6 samples.

Results

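The genes described here are those of the proteasome and its activators, assembly chaperones and inhibitor, taken as every row whose symbol begins with Psm, continues with a letter from a to g and a number, and may end in a further letter. The rule found 48 genes among the 25655 in the table. They were divided into 5 immunoproteasome genes, Psmb8, Psmb9, Psmb10, Psme1 and Psme2, and the 43 others. Messenger RNA was sequenced from Comma-Dβ, an established line of mouse mammary epithelium, used at passage 29. One arm (siID4) received the siGENOME SMARTpool against mouse Id4 and the other (NT) the ON-TARGETplus non-targeting pool, each at 20 nM with Dharmafect-4, and cells were harvested at 48 hr. Each arm had 3 biological replicates, whose relation to separate cultures is not described further, so p-values measure the spread between these libraries. The series asks how expression changes when ID4 is depleted. Since each arm thus used its own siRNA product line, an effect of the product and an effect of Id4 depletion cannot be told apart. The labels name no interferon treatment.

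The proteasome is the protease complex that degrades most ubiquitin-tagged proteins of the cytosol and nucleus. Its barrel-shaped core is built of alpha and beta rings, and 3 of the beta subunits, Psmb5, Psmb6 and Psmb7, carry the cutting sites. In cells exposed to interferon, and constitutively in many immune cells, Psmb8, Psmb9 and Psmb10 are built into new cores in place of Psmb5, Psmb6 and Psmb7, and the resulting immunoproteasome is known for making peptides suited to presentation by MHC class I. Psme1 and Psme2, also inducible by interferon, form the PA28 alpha-beta cap, which opens the core without ubiquitin or ATP. The regulatory particle is the other main cap: its base unfolds substrates with ATPases, and its lid removes ubiquitin.

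Libraries held between 19.2 and 23.1 M counts, of which the 48 proteasome genes took between 0.572% and 0.588%. Id4 (ENSMUSG00000021379), the targeted gene, had 59.4, 62.2 and 48.2 CPM in siID4 libraries, against 135, 114 and 118 CPM in NT libraries. CPM is a gene's count per 1 M counts of its library, scaled between libraries by TMM. The arms did not overlap, and the edgeR quasi-likelihood test with Benjamini-Hochberg adjustment put Id4 1.11 lower on the log2 scale (log2 fold change −1.11, SE 0.10) with adjusted p = 8.65e-04. Of 13941 genes tested, 644 rose (4.62%) and 687 fell (4.93%) in siID4 cells at an adjusted p under 0.05, or 829 and 564 when libraries were scaled by their totals alone. A model that adds the replicate number as a block called 2493 higher (17.9%) and 2545 lower (18.3%). The labels state no pairing of libraries between arms, so p-values with the block rest on an assumed pairing. Among the mammary epithelial markers, Krt14 had 1001, 774 and 829 CPM in siID4 libraries and 984, 851 and 974 CPM in NT libraries, and Krt5 was of the same order. Of the 7 markers, Cdh1 and Trp63 rose by 0.24 and 0.27 on the log2 scale (edgeR adjusted p = 0.0234 and 0.0279), Epcam fell by 0.25 (0.0211), and 4, among them Krt8 and Krt18, did not pass. Leukocyte markers summed to 1.38 to 1.68 CPM in siID4 libraries and 0.753 to 1.19 CPM in NT libraries over the 8 of 10 found in the table, with Cd52 at 0 in all 6 libraries. Endothelial markers summed to 1.23 to 1.50 CPM in siID4 libraries and 0.470 to 0.748 CPM in NT libraries over 6 genes, with Tie1 at 0 in all. Fibroblast markers summed to 1240 to 1869 CPM in siID4 libraries and 907.6 to 1391 CPM in NT libraries. Most of each sum was Col3a1, with 1419, 1142 and 861 CPM in siID4 libraries and 975, 736 and 597 CPM in NT libraries. Lum, at the other end, was at most 0.136 CPM in any library. Of 6 fibroblast markers tested, Pdgfrb rose and Pdgfra fell. Adipocyte markers summed to at most 0.408 CPM in any library. In bulk RNA a change in the share of a cell type and a change in RNA per cell cannot be told apart.

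All 5 immunoproteasome genes rose in siID4 cells, where 4.62% of all genes tested rose, and none of the 42 tested among the other proteasome genes did. The 3 catalytic immunosubunits were about 1.5 to 1.6 times as high in siID4 as in NT cells, and the 2 PA28 genes about 1.2 times. The constitutive catalytic subunits Psmb5, Psmb6 and Psmb7, which occupy the same positions in the core, differed between arms by 0.06 or less on the log2 scale. The median log2 fold change was 0.59 over the immunoproteasome genes and −0.04 over the other members tested, against 0.00 over all genes tested. In 15.5% of all genes tested every siID4 library lay above every NT library, and that held for 5 of 5 immunoproteasome genes and 2 of 42 others.

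**Figure D1:**
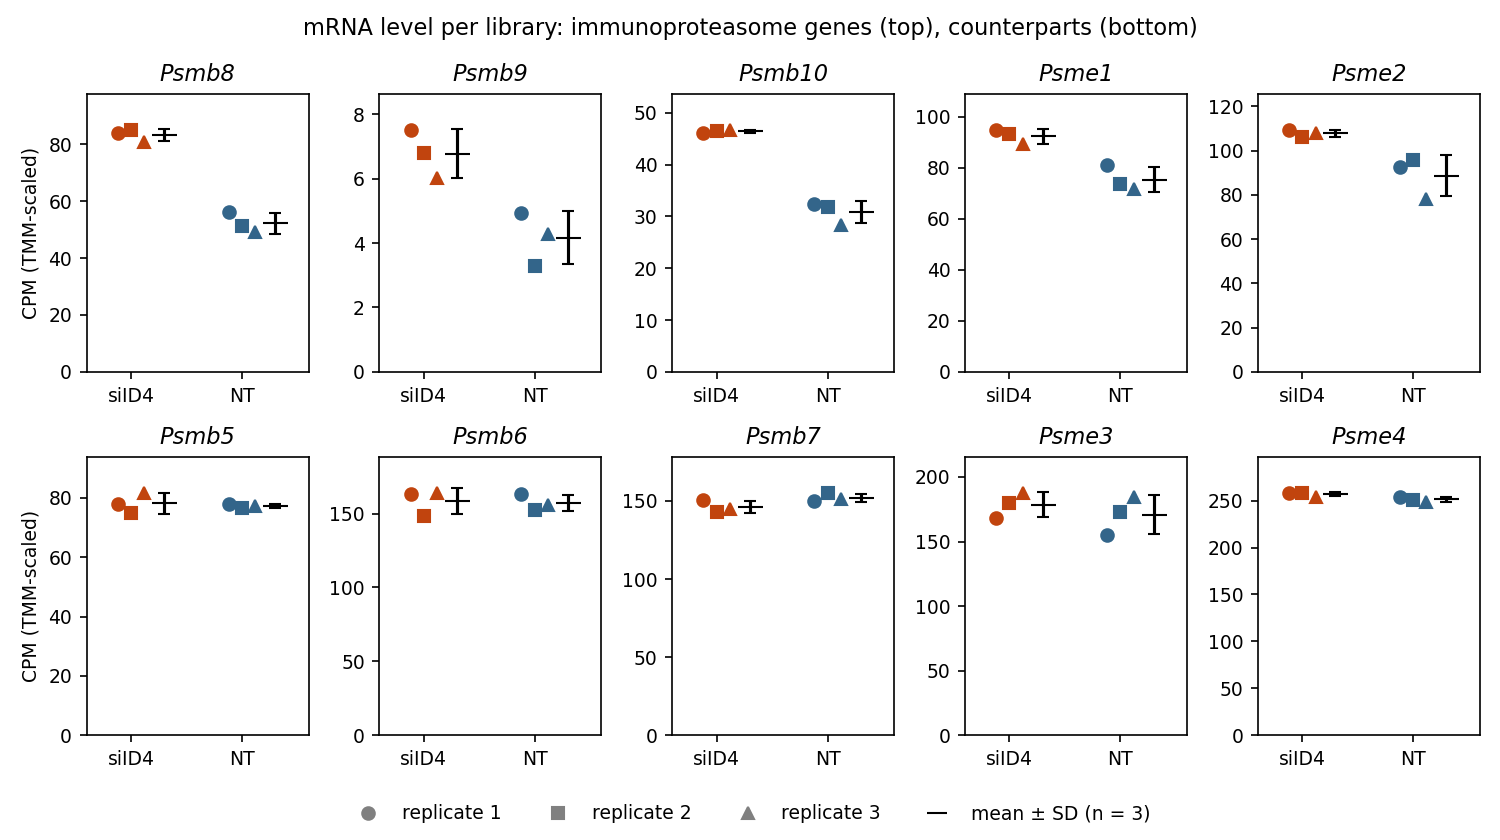
TMM-scaled CPM (vertical axes from 0) in each siID4 library (left) and NT library (right) for the 5 immunoproteasome genes (top) and for Psmb5, Psmb6, Psmb7, Psme3 and Psme4 (bottom), with the mean ± SD of 3 libraries. In the top row no siID4 library overlaps an NT library, and in the bottom row the arms overlap for each gene.

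The immunoproteasome genes lie in 3 places in the genome (GRCm38). Psmb9 (chr17:34181987-34187764, minus strand), Tap1 (chr17:34187553-34197225, plus strand), Psmb8 (chr17:34197721-34201454, plus strand) and Tap2 (chr17:34203527-34216321, plus strand) are neighbours in the MHC region. Psmb9 and Tap1 share 212 bases on opposite strands, Tap1 and Psmb8 are 495 bases apart, and Psmb8 and Tap2 are 2072 bases apart. Psme1 (chr14:55578123-55581529, plus strand) and Psme2 (chr14:55587441-55591113, minus strand) are 5911 bases apart, and Psmb10 (chr8:105935735-105938444, minus strand) stands alone. Their counterparts are on other chromosomes or elsewhere on the same one, with Psmb5 on chr14, Psmb6 on chr11 and Psmb7 on chr2. All are annotated as protein-coding. Psmb8 and Psmb10 are overlapped by the annotated antisense genes Gm20496 and Gm16156. Such overlap is not particular to these genes, since 23 of the 48 members overlap another annotated gene. Among them is the counterpart Psmb7, which shares bases with Nek6 on the opposite strand. The strand setting of the counting is not given in the sources used here, so reads of such partners may not have been kept apart.

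Start regions were searched for letters that interferon-activated and NRF factors are known to bind, in RefSeq windows of GRCm38.p6 from 250 bases before to 50 bases after each start, on both strands. The 3 motifs were GAAA and GAAA with a pair of free bases between them, the core of the interferon-stimulated response element (ISRE), TTCNNNGAA, the core of the gamma-activated sequence (GAS), and TGACNNNGC, the core of the antioxidant response element (ARE). Of the 48 genes 41 had a window. The ISRE letters were in 1 of 6 immunoproteasome windows, 4 of 38 other proteasome windows (10.5%) and 3.4% of all 32851 windows. The GAS letters were in 1 of 6, 2 of 38 (5.26%) and 8.3%, and the ARE letters in 0 of 6, 6 of 38 (15.8%) and 12.4%. The matches in the immunoproteasome genes and in 2 constitutive catalytic subunits are shown as 30 bases, 5′ to 3′ on the gene's strand, with the match in capitals. The Psmb8 line holds the GAS letters and the Psme1 line the ISRE letters on the opposite strand, both in annotated UTR, while the Psmb5 and Psmb6 lines hold the ARE letters upstream of the gene.
Psmb8, chr17:34198088-34198117, plus strand: tcctccgctgTTCCCAGAAgatgccccccc
Psme1, chr14:55578493-55578522, plus strand: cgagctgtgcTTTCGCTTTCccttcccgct
Psmb5, chr14:54618023-54618052, minus strand: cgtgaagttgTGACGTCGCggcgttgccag
Psmb6, chr11:70525338-70525367, plus strand: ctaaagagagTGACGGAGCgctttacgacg
Psmb8 and Psme1 rose and Psmb5 and Psmb6 did not pass the test. Psmb9, Psmb10 and Psme2 rose with none of these letters in their windows. The ISRE letters were also in windows of Psmb3, Psmd4, Psmd9 and Psmg4, and the GAS letters in those of Psmd2 and Psmg1. Further ARE letters were in windows of Psmc6, Psmd9, Psmd12 and Psme4. None of these other genes passed the edgeR test. A match is a stretch of letters and not a measured binding site.

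Psmb8 (ENSMUSG00000024338) encodes the chymotrypsin-like immunosubunit β5i, also called LMP7. It had 83.8, 85.0 and 80.9 CPM in siID4 libraries, against 56.3, 51.2 and 49.1 CPM in NT libraries. The siID4 libraries lay close together and all above the NT libraries. The means were 83.2 ± 2.11 CPM in siID4 and 52.2 ± 3.70 CPM in NT (SD, n = 3 each), a log2 fold change of 0.67 (SE 0.06, edgeR adjusted p = 6.31e-04). The call held without any one library, with an adjusted p of at most 0.00888.

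Psmb10 (ENSMUSG00000031897) encodes β2i, or MECL-1, the immunosubunit with trypsin-like activity. Its level was 46.0, 46.5 and 46.7 CPM in siID4 libraries, against 32.3, 31.8 and 28.4 CPM in NT libraries. Again the arms were clearly apart, with an SD of 0.342 CPM in siID4 and 2.13 CPM in NT around means of 46.4 and 30.8 CPM (n = 3 each). This gave a log2 fold change of 0.59 (SE 0.07, edgeR adjusted p = 0.00177), and the adjusted p was at most 0.0175 without any one library.

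Psmb9 (ENSMUSG00000096727) encodes β1i, or LMP2, which cuts after hydrophobic residues where its constitutive counterpart Psmb6 cuts after acidic ones. It had 7.51, 6.79 and 6.01 CPM in siID4 libraries, against 4.92, 3.29 and 4.27 CPM in NT libraries. The arms did not overlap, although the spread within each was wider in proportion than for Psmb8 and Psmb10. The means were 6.77 ± 0.753 CPM in siID4 and 4.16 ± 0.820 CPM in NT (SD, n = 3 each), a log2 fold change of 0.70 (SE 0.17, edgeR adjusted p = 0.0310). The call was lost without siID4 replicate 1 (adjusted p = 0.0864), siID4 replicate 2 (0.119), NT replicate 2 (0.102) or NT replicate 3 (0.0656).

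Psme1 (ENSMUSG00000022216), the alpha subunit of PA28, had 94.9, 93.1 and 89.3 CPM in siID4 libraries, against 81.0, 73.6 and 71.6 CPM in NT libraries. Its means were 92.4 ± 2.90 CPM in siID4 and 75.4 ± 4.95 CPM in NT (SD, n = 3 each). Psme1 thus rose by 0.29 on the log2 scale (SE 0.06, edgeR adjusted p = 0.0157). The call was lost without siID4 replicate 2 (adjusted p = 0.0786) or NT replicate 2 (0.0771).

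Psme2 (ENSMUSG00000079197), the beta subunit of PA28, had 109, 106 and 108 CPM in siID4 libraries, against 92.6, 95.7 and 78.0 CPM in NT libraries. NT replicate 3 lay well below the other two NT libraries, and all NT libraries lay below the siID4 libraries. Psme2 rose by 0.28 on the log2 scale (SE 0.07, edgeR adjusted p = 0.0433), with means of 108 ± 1.62 CPM in siID4 and 88.7 ± 9.46 CPM in NT (SD, n = 3 each). The call held in only 1 of the 6 fits that left out a library, the one without NT replicate 1, and the adjusted p reached 0.136 without siID4 replicate 2.

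Psme2b (ENSMUSG00000078153), a near copy of Psme2 on another chromosome, had 2.76, 3.76 and 3.51 CPM in siID4 libraries, against 2.76, 2.61 and 2.46 CPM in NT libraries. Its log2 fold change of 0.36 (SE 0.17) did not pass the edgeR test (adjusted p = 0.235). Reads that fit both copies were divided between them by estimate, and Psme2b lies wholly within another annotated gene on the same strand, Gm12185, so its level is uncertain. Summing the counts of both copies gave 0.28 on the log2 scale (SE 0.07, edgeR adjusted p = 0.0397).

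The number of immunoproteasome genes called was 5 of 5 also with the replicate block, where 17.9% of all genes tested rose and 18.3% fell. That number was 5 of 5 too with DESeq2 (10.7% of all genes called in either direction) and with limma-voom (9.55%). It fell to 3 without siID4 replicate 1, 2 without siID4 replicate 2, 4 without siID4 replicate 3, 2 without NT replicate 2 and 3 without NT replicate 3. Over all genes, the calls in these fits fell too, from 1331 to 884, 445, 966, 631 and 905 in that order. Psmb8 and Psmb10 were called in each of these fits, with 2 libraries left in 1 arm.

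Libraries that share a replicate number deviated together, so the difference within each number was also computed. Psmb8 was higher in siID4 by 0.57, 0.73 and 0.72 on the log2 scale in replicates 1, 2 and 3. Psmb10 was higher by 0.51, 0.55 and 0.72, and Psmb9 by 0.61, 1.05 and 0.49. For Psme1 the differences were 0.23, 0.34 and 0.32, and for Psme2 they were 0.24, 0.15 and 0.47. All these differences were bound to be positive, since for each of the 5 genes every siID4 library lay above every NT library. The smallest within-number difference of the 3 catalytic immunosubunits (0.49) exceeded the largest of the PA28 genes (0.47).

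None of the constitutive catalytic subunits passed the test. Psmb5, the chymotrypsin-like β5, had 78.0, 74.7 and 81.6 CPM in siID4 libraries, against 77.8, 76.4 and 77.2 CPM in NT libraries (log2 fold change 0.02, SE 0.05, edgeR adjusted p = 0.873). Psmb6, the caspase-like β1, had 163, 148 and 164 CPM in siID4 libraries, against 163, 153 and 156 CPM in NT libraries (log2 fold change 0.01, edgeR adjusted p = 0.922). The trypsin-like β2, Psmb7, had 151, 143 and 145 CPM in siID4 libraries, against 150, 155 and 151 CPM in NT libraries (log2 fold change −0.06, edgeR adjusted p = 0.459). For all 3 the arms overlapped and the SE of the log2 fold change was about 0.05, so small changes would not be detectable here.

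**Figure D2:**
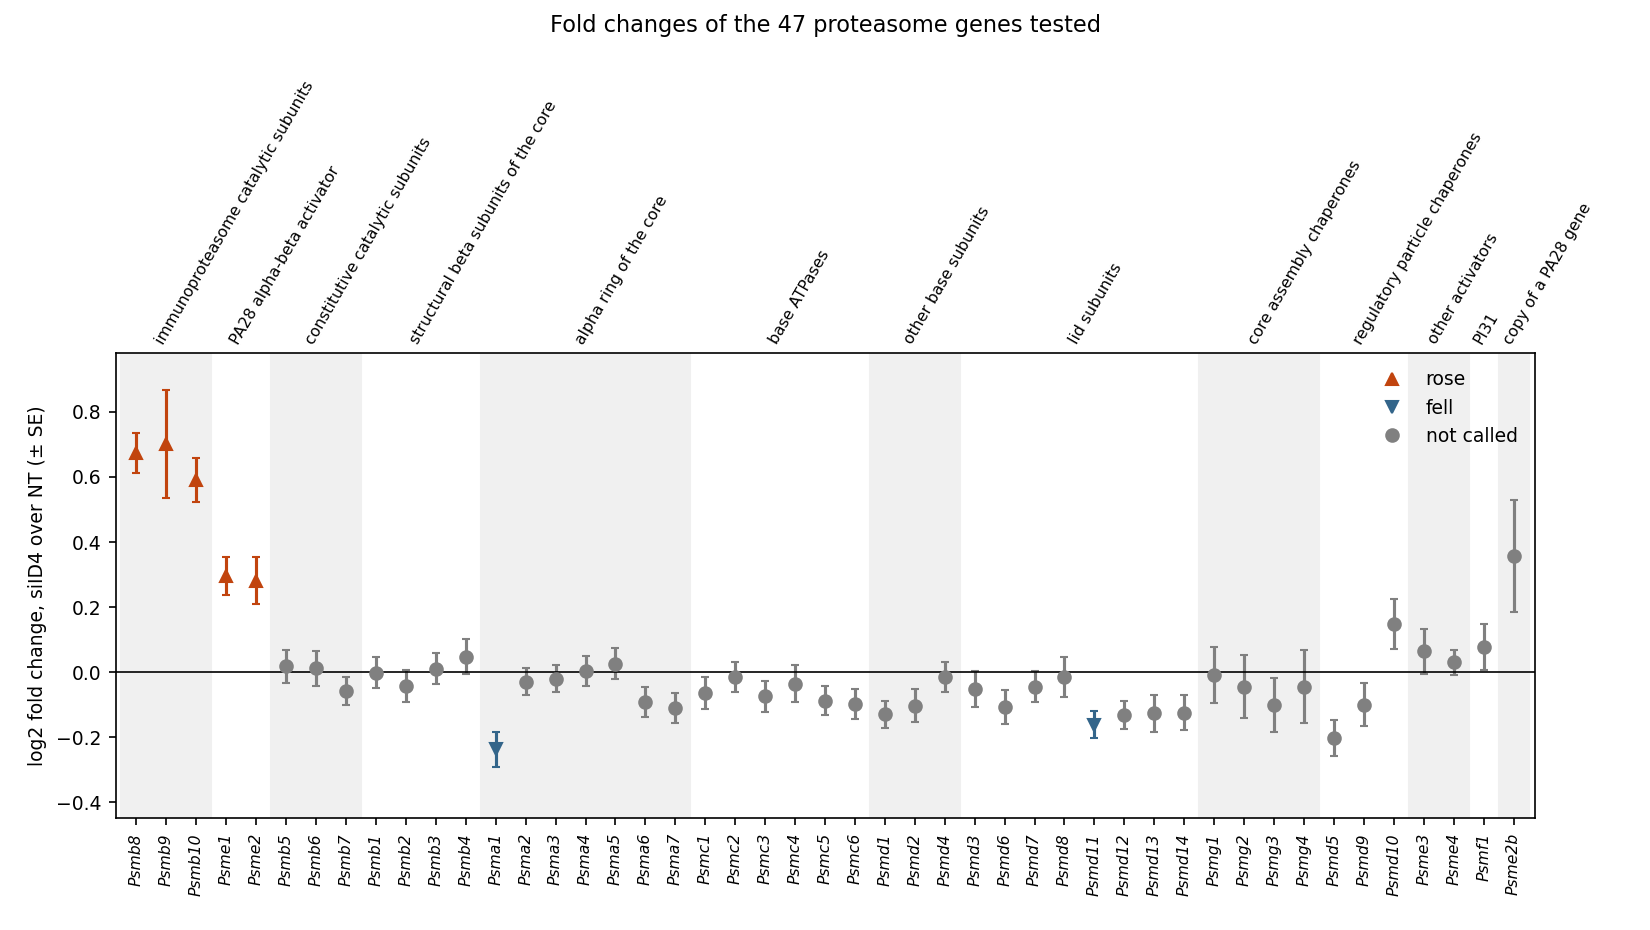
Log2 fold change (siID4 over NT) with its standard error for the 47 proteasome genes tested, grouped by role along the horizontal axis. Upward triangles mark the 5 genes that rose, from 0.28 to 0.70, and downward triangles the 2 that fell, Psma1 and Psmd11; grey circles did not pass.

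Because each immunosubunit competes with 1 constitutive subunit for a position in the core, the level of each was set against its counterpart per library. Levels were divided by gene length for this (CPM per kb), and the share is of mRNA, not of assembled protein. Psmb8 made up 46.0%, 47.4% and 44.0% of the Psmb8 and Psmb5 mRNA in siID4 libraries, against 36.4%, 34.7% and 33.5% in NT libraries. The mean share was 45.8% ± 1.71 in siID4 and 34.9% ± 1.47 in NT (SD, n = 3 each), a difference of 10.9 percentage points. Psmb10 made up 21.5%, 22.6% and 22.4% of the Psmb10 and Psmb7 mRNA in siID4 libraries, against 16.2%, 15.5% and 14.4% in NT libraries, with means of 22.2% ± 0.590 in siID4 and 15.4% ± 0.891 in NT. Psmb9 made up only 2.58%, 2.57% and 2.07% of the Psmb9 and Psmb6 mRNA in siID4 libraries, against 1.71%, 1.22% and 1.55% in NT libraries. So the 3 positions differed widely in their immunosubunit share, from a few percent at β1 to more than 40 percent at β5 in siID4 cells, and the share was higher in siID4 at each. Psme1 and Psme2 together made up 63.8%, 62.2% and 61.4% of the mRNA of Psme1, Psme2, Psme3 and Psme4 in siID4 libraries, against 61.4%, 59.2% and 55.0% in NT libraries. There the lowest siID4 and the highest NT library were nearly equal. For each of these 4 shares the exact two-sided permutation test gave p = 0.1, the smallest that 3 against 3 libraries allow.

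**Figure D3:**
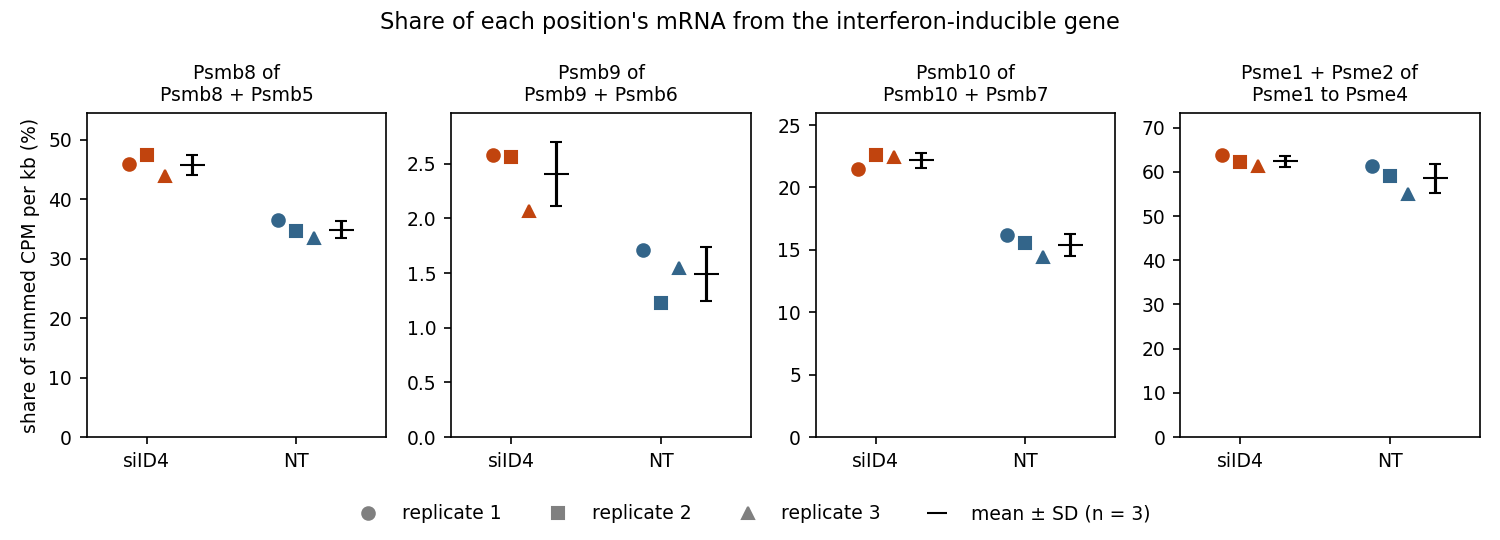
Share (%, vertical axes from 0) of the length-scaled mRNA of each core position, or of the core's activators, contributed by the interferon-inducible genes, in each siID4 library (left) and NT library (right), with the mean ± SD of 3 libraries. Psmb8 sits between 44.0% and 47.4% in siID4 and between 33.5% and 36.4% in NT, while Psmb9 stays under 3% in both arms.

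Over the 3 positions together, the immunosubunits held 21.6%, 22.97% and 21.2% of the catalytic mRNA per kb in siID4 libraries, against 15.8%, 15.1% and 14.4% in NT libraries. The summed level of the 5 immunoproteasome genes was 342, 338 and 331 CPM in siID4 libraries, against 267, 256 and 231 CPM in NT libraries. The sum over the other members was 5402, 5284 and 5513 CPM in siID4 libraries, against 5536, 5537 and 5746 CPM in NT libraries. The sum over all 48 genes came to 5743, 5621 and 5843 CPM in siID4 libraries and 5804, 5792 and 5978 CPM in NT libraries. On the TMM scale the total thus overlapped between arms, while the immunoproteasome sum was higher in siID4 without overlap. The sum over the others was lower in siID4 by a narrow margin, with 5513 CPM in siID4 replicate 3 against 5536 CPM in NT replicate 1. These sums were not computed with library totals.

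Levels of different genes were compared per length. The 11 core genes other than the catalytic ones ranged from 98.8 to 171 CPM per kb in siID4 cells and from 97.0 to 174 CPM per kb in NT cells. Psmb6 was the highest of the family in both arms, and Psmb5 had 89.7 CPM per kb in siID4 and 88.6 CPM per kb in NT. The 17 genes of the regulatory particle found by the rule ranged from 55.9 to 135 CPM per kb in siID4 and from 60.2 to 145 CPM per kb in NT. The 7 assembly chaperones were lower, between 15.3 and 39.0 CPM per kb in siID4 and between 15.8 and 44.9 CPM per kb in NT. Psmb8 had 75.7 ± 1.92 CPM per kb in siID4 and 47.5 ± 3.36 CPM per kb in NT, Psmb10 had 36.5 ± 0.269 and 24.3 ± 1.68 CPM per kb in those arms, and Psmb9 had 4.92 ± 0.547 and 3.02 ± 0.595 CPM per kb (SD, n = 3 each). Psmb8 thus lay below each of the 14 constitutive core genes in both arms, and Psmb9 near the bottom of the family beside Psme2b.

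**Figure D4:**
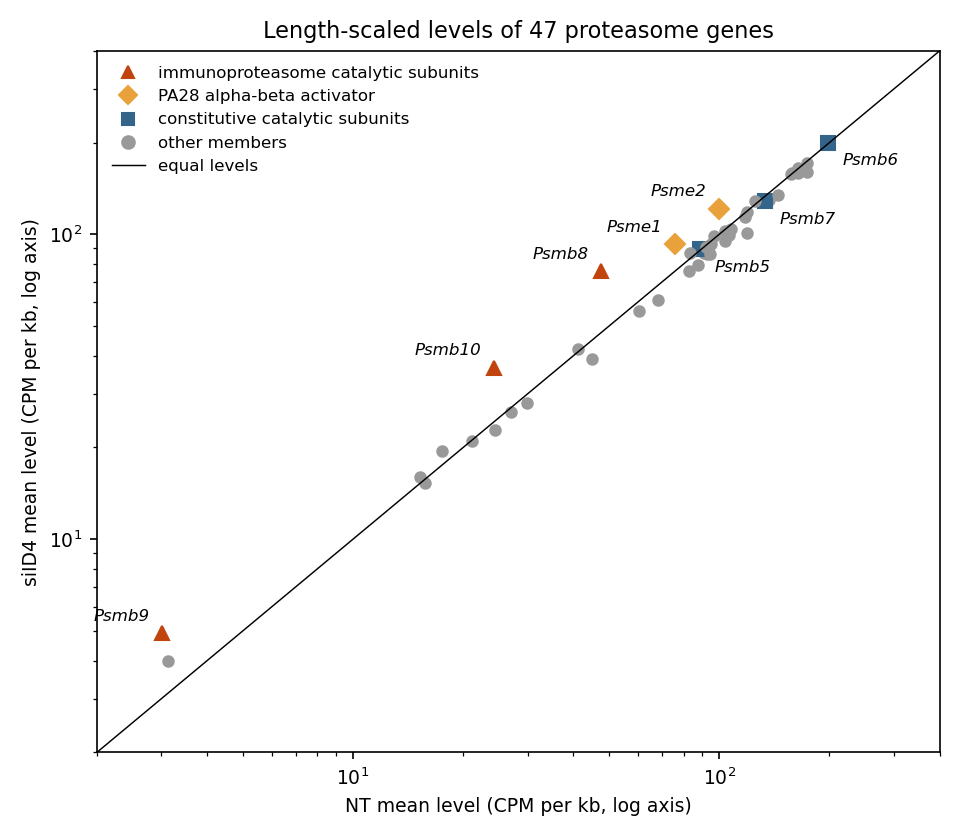
Mean level in siID4 cells (vertical) against mean level in NT cells (horizontal) for the 47 proteasome genes tested, both in CPM per kb on log axes, with the line of equal levels. Psmb8, Psmb9, Psmb10, Psme1 and Psme2 stand above the line, while Psmb5, Psmb6, Psmb7 and most other members lie on or just under it.

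Of the 42 other members tested, none rose and 2 fell, which is 4.76% against 4.93% of all genes tested and so near the background. By edgeR 8 of the 42 had an unadjusted p under 0.05, as did 25.6% of all genes tested. DESeq2 called 3 (Psma1, Psmd11 and Psmd5) and limma-voom called 2, where they called 10.7% and 9.55% of all genes in either direction. Log2 fold changes ran from −0.24 to 0.36, with 31 negative and 11 positive. With library totals in place of TMM, 25 were negative and 17 positive. That scaling moved the median log2 fold change of all genes tested from 0.001 to 0.030, and that of these members from −0.045 to −0.015. The arms did not overlap, with siID4 lower, for 12 of the 42 (28.6%), against 15.4% of all genes tested.

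Psma1, an alpha-ring subunit, was 1 of the 2 that fell. It had 118, 117 and 127 CPM in siID4 libraries, against 137, 142 and 149 CPM in NT libraries, a log2 fold change of −0.24 (SE 0.05, edgeR adjusted p = 0.0253). The call was lost without siID4 replicate 1 (adjusted p = 0.0767), siID4 replicate 2 (0.134), NT replicate 2 (0.0888) or NT replicate 3 (0.0681). Psmd11, the lid scaffold also called Rpn6, was the other, with 133, 129 and 130 CPM in siID4 libraries, against 145, 148 and 146 CPM in NT libraries. It lay −0.16 on the log2 scale from NT (SE 0.04, edgeR adjusted p = 0.0403). That call was lost without any one library (adjusted p from 0.0603 to 0.167), with library totals (0.0741) and with no filter on low counts (0.0794).

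With the replicate block, 14 of the 42 fell (33.3%), against 18.3% of all genes tested in that fit, and 1 rose, Psmd10 (adjusted p = 0.0486), against 17.9%. The 14 were 3 alpha subunits (Psma1, Psma6 and Psma7), 3 ATPases (Psmc3, Psmc5 and Psmc6), 2 other base subunits (Psmd1 and Psmd2), 5 lid subunits (Psmd6, Psmd11, Psmd12, Psmd13 and Psmd14) and the chaperone Psmd5. None of the constitutive beta subunits was among them. Each of the 14 had a log2 fold change between −0.24 and −0.07 in the fit without the block.

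By role, the alpha ring, which gates the core, had a median log2 fold change of −0.03, with Psma2 to Psma5 between −0.03 and 0.03. The structural beta subunits Psmb1 to Psmb4 lay between −0.04 and 0.05, and none passed the test. All 17 genes of the regulatory particle found by the rule had a negative log2 fold change, with a median of −0.09. With library totals 14 of the 17 were negative. Of the 14 constitutive core genes 8 were negative, or 6 with library totals. Psmd1 and Psmd2 are the large base scaffolds also called Rpn2 and Rpn1. Psmd1 had 271, 259 and 261 CPM in siID4 libraries, against 292, 285 and 289 CPM in NT libraries, arms that did not overlap, with a log2 fold change of −0.13 (edgeR adjusted p = 0.0777, or 2.56e-04 with the block). Psmd14, the deubiquitinase Rpn11 of the lid, had 130, 120 and 132 CPM in siID4 libraries, against 138, 135 and 145 CPM in NT libraries (log2 fold change −0.12, edgeR adjusted p = 0.178, or 0.00178 with the block). The ubiquitin receptor Psmd4, or Rpn10, had a log2 fold change of −0.01 (edgeR adjusted p = 0.888), a sign that turned with library totals (0.01).

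The assembly chaperones are not part of the finished complex. Those of the core, Psmg1 to Psmg4, had log2 fold changes from −0.10 to −0.01 and none passed. Psmd5, a chaperone of the base also called S5b, had 66.7, 66.3 and 72.0 CPM in siID4 libraries, against 75.03, 80.5 and 80.3 CPM in NT libraries. The arms did not overlap, and the log2 fold change of −0.20 (SE 0.06) just missed the edgeR threshold (adjusted p = 0.0534) and passed with the block (4.67e-05) and with DESeq2 (0.0499). Psmd10, or gankyrin, went the other way, with 26.0, 26.9 and 30.2 CPM in siID4 libraries, against 25.6, 24.4 and 25.1 CPM in NT libraries (log2 fold change 0.15, edgeR adjusted p = 0.268). Psmd9 had a log2 fold change of −0.10 (edgeR adjusted p = 0.387).

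The activators that are not interferon-inducible did not pass the test. Psme3, which forms the nuclear PA28 gamma cap, had 168, 180 and 188 CPM in siID4 libraries, against 155, 173 and 185 CPM in NT libraries (log2 fold change 0.06, edgeR adjusted p = 0.623). Psme4, the PA200 cap, had 258, 258 and 254 CPM in siID4 libraries, against 254, 251 and 249 CPM in NT libraries (log2 fold change 0.03, edgeR adjusted p = 0.687). PI31, encoded by Psmf1 and first described as an inhibitor of the core, had a log2 fold change of 0.08 (edgeR adjusted p = 0.540). Psmb11, the thymus-specific subunit β5t, was not tested, with 2, 0 and 0 counts in siID4 libraries and 0, 1 and 0 counts in NT libraries.

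Genes outside the rule that work with the proteasome were followed in a partner list of 20, of which 19 were found in the table. By edgeR none rose and 1 fell, with 3 at an unadjusted p under 0.05 and 2 called by DESeq2, against 4.62% of all genes that rose, 4.93% that fell, 25.6% at that unadjusted p and 10.7% called by DESeq2. Txnl1, a thioredoxin-like protein bound to the regulatory particle, averaged 98.2 ± 0.715 CPM in siID4 and 112 ± 4.72 CPM in NT (SD, n = 3 each; log2 fold change −0.19, edgeR adjusted p = 0.0364), a call lost without any one library. Pomp, the chaperone that matures new cores, had a log2 fold change of −0.08 (edgeR adjusted p = 0.398). Adrm1, a ubiquitin receptor of the base, was at −0.04 (0.795), and Sem1, a small lid subunit, at −0.03 (0.796). With the block 1 of the 19 rose and 5 fell, against 17.9% and 18.3% of all genes.

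The regulator list held 18 genes, of which 2 rose and 1 fell, against 4.62% and 4.93% of all genes. Nlrc5, the transactivator of MHC class I genes, had 12.3, 15.2 and 11.8 CPM in siID4 libraries, against 9.03, 7.99 and 6.64 CPM in NT libraries (log2 fold change 0.74, SE 0.14, edgeR adjusted p = 0.0145). The call of Nlrc5 was lost without siID4 replicate 2 (adjusted p = 0.07) or NT replicate 2 (0.0603). Irf1, an interferon-induced factor known to act on immunosubunit promoters, had 78.0, 94.8 and 89.5 CPM in siID4 libraries, against 67.1, 74.3 and 75.5 CPM in NT libraries. Its log2 fold change of 0.27 missed the threshold (edgeR adjusted p = 0.0601) and passed with the block (2.56e-07). Of the NRF factors known to act on constitutive proteasome genes, Nfe2l1 had a log2 fold change of 0.11 (edgeR adjusted p = 0.172, or 0.00128 with the block). Nfe2l2 fell, with 77.1, 72.5 and 72.2 CPM in siID4 libraries, against 99.9, 97.1 and 102 CPM in NT libraries (log2 fold change −0.43, SE 0.05, edgeR adjusted p = 0.00164). With the block 7 of the 18 rose and 3 fell, against 17.9% and 18.3% of all genes.

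Of 11 genes of the MHC class I presentation pathway, 5 rose and none fell by edgeR (9 at an unadjusted p under 0.05, 7 called by DESeq2), with a median log2 fold change of 0.40, and with the block 9 rose and 1 fell. Of all genes tested, 4.62% rose by edgeR, 25.6% had such an unadjusted p, 10.7% were called by DESeq2, and 17.9% rose and 18.3% fell with the block. Tap2, a chain of the peptide transporter of the endoplasmic reticulum, had 76.6, 77.3 and 67.3 CPM in siID4 libraries, against 52.5, 52.3 and 44.0 CPM in NT libraries (log2 fold change 0.57, edgeR adjusted p = 0.00446). Its partner Tap1 had 38.7, 34.2 and 30.1 CPM in siID4 libraries, against 27.9, 22.6 and 16.5 CPM in NT libraries. The arms of Tap1 did not overlap, and its log2 fold change of 0.62 (SE 0.18) missed the threshold (edgeR adjusted p = 0.0660) and passed with the block (9.16e-09). B2m, the light chain of MHC class I, averaged 484 ± 26.0 CPM in siID4 and 351 ± 34.8 CPM in NT (SD, n = 3 each; log2 fold change 0.46, edgeR adjusted p = 0.00598). Tapbp, H2-K1 and H2-D1 rose too, by 0.54, 0.47 and 0.40 on the log2 scale.

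All 18 interferon-inducible genes listed had a positive log2 fold change, with a median of 1.16, and 8 rose, or 13 with the block and 15 by DESeq2, against 4.62%, 17.9% and 10.7% of all genes. Oas2, Bst2, Gbp2 and Xaf1 had log2 fold changes of 1.91, 1.27, 1.16 and 1.17. The list's summed level was 1209, 1146 and 1019 CPM in siID4 libraries, against 694.7, 549.3 and 390.8 CPM in NT libraries. The siID4 libraries were all above the NT libraries, and NT replicate 3 was the lowest of the 6.

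The mean log2 deviation of the immunoproteasome genes from their own means over 6 libraries followed a like order. It was 0.30, 0.26 and 0.21 in siID4 libraries and −0.13, −0.30 and −0.33 in NT libraries. For the interferon-inducible list it was 0.68, 0.57 and 0.35 in siID4 libraries and −0.07, −0.46 and −1.07 in NT libraries. The other proteasome genes stayed between −0.05 and 0.02 in siID4 libraries and between 0.00 and 0.05 in NT libraries. The part of these interferon-inducible genes' order, or of the leukocyte, endothelial and fibroblast sums given above, in the immunoproteasome result was not tested. Leukocyte and endothelial sums were higher in every siID4 library than in any NT library, while the fibroblast sums overlapped between arms. Among the leukocyte markers, Ptprc (CD45) was at most 0.088 CPM in any library. Csf1r averaged 1.16 CPM in siID4 and 0.770 CPM in NT, and Lyz2 0.132 and 0.0167 CPM, both without overlap between arms. Csf1r did not pass the edgeR test (adjusted p = 0.193), and the low counts of Ptprc and Lyz2 were not tested. Without NT replicate 3 the median log2 fold change of the 5 genes was 0.53.

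**Figure D5:**
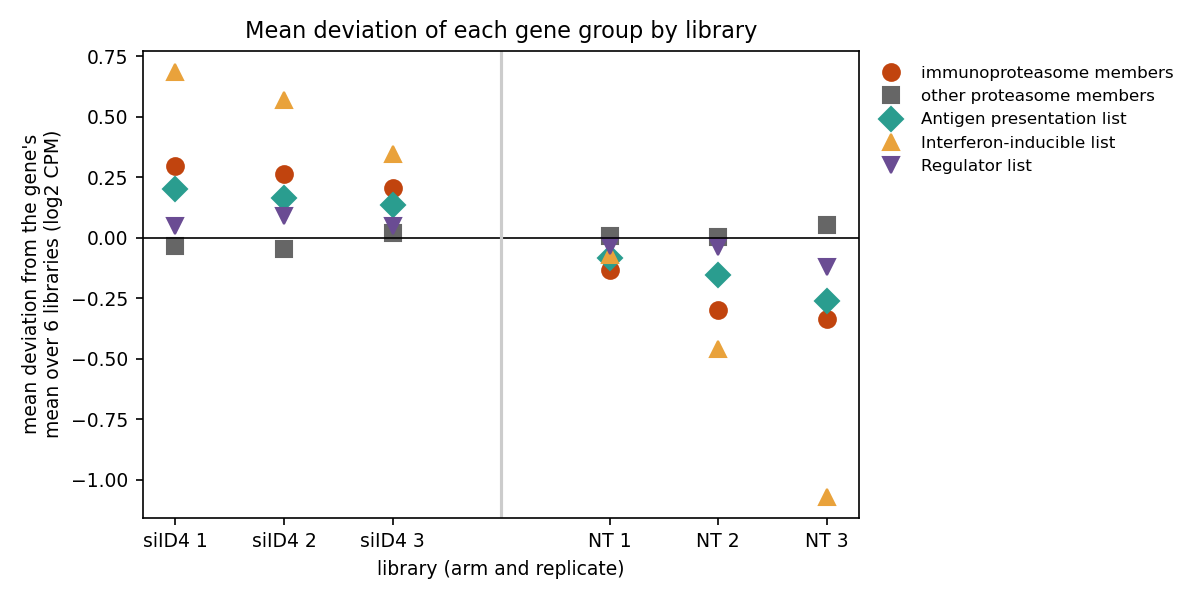
Mean deviation (log2 CPM) of each gene group from its genes' means over the 6 libraries, for siID4 replicates 1 to 3 (left of the grey line) and NT replicates 1 to 3 (right). Immunoproteasome genes lie above 0 in the 3 siID4 libraries and below 0 in the 3 NT libraries, as do the interferon-inducible and antigen presentation lists, while the other proteasome genes stay between −0.05 and 0.05.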

How the data were processed

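Poly(A)-selected, strand-marking libraries were made from 1 µg of RNA per sample. The authors deposited expected counts per gene and library in 1 table that also gives gene lengths. The submitters' processing notes list RSEM, STAR, cutadapt and mm10, without versions or roles. Neither the annotation release nor the strand setting of the counting is given there. Reads that fit several genes enter expected counts by estimate. Between 10.0% and 10.6% of values per library were not whole, and all were rounded before testing.

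Arms were compared over 13941 genes by the quasi-likelihood test of edgeR 4.0.16 (R 4.3.3; robust, TMM, filterByExpr, arm as the only term), with Benjamini-Hochberg adjusted p under 0.05 as a call. Other tests are named where their adjusted p-values appear. SEs were derived from the F statistic. CPM per kb divides by the deposited gene length. The depth of 19.2 to 23.1 M counts came with a biological coefficient of variation of 7.83%. Library pairs of an arm differed by more than sampling noise (4.81 to 12.8 chi-square units per gene). The fit was tested on simulated counts. Coordinates are from GENCODE M21 and start regions from RefSeq.

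The labels state no pairing between arms. Same-numbered libraries deviated together in these data (correlation across genes 0.42, 0.14 and 0.38), so the replicate number was used as a block in an alternative fit. The others were RLE, upper quartile and library-total scaling, no filter, 5 CPM as the lowest mean, limma-voom (limma 3.58.1), DESeq2 1.42.0, each library left out, and Psme2 summed with Psme2b. The members, gene lists and the genes to be named (all members, list genes with the smallest adjusted p and preset regulators) were chosen with earlier results of these data known. Sem1 and Ecpas of the partner list were matched by gene identifier. One gene of the regulator list is not reported here.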

Additional observations from a re-analysis of the deposited data

How the results depend on the processing

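RLE and upper quartile scaling, a minimum mean of 5 CPM, and summing Psme2 with Psme2b left the direction and side of the threshold of the member counts and medians as reported. Library totals gave 1 other member that fell and a median of −0.015 over the other members; no filter on low counts gave 1 that fell. The replicate block gave 5038 called genes (2493 rose, 2545 fell), 14 other members that fell and 1 that rose, and left the immunoproteasome count at 5. Among the single genes tested as members or list genes, the block brought 36 past the threshold and ended the call of 1, Oasl2 (adjusted p = 0.0742). Leaving out 1 library gave between 445 and 1351 called genes (221 to 686 rose, 224 to 665 fell), with 884 without siID4 replicate 1, 445 without siID4 replicate 2 and 631 without NT replicate 2, and 404, 221 and 291 of these rose, or 423 without NT replicate 3. It gave 2 to 5 immunoproteasome genes that rose and 0 to 2 other members that fell. The median was 0.53 to 0.63 over the immunoproteasome genes and −0.074 to −0.028 over the other members. In the shares, the difference (siID4 minus NT) ranged over 10.1 to 11.8 points for Psmb8, 0.775 to 1.08 for Psmb9, 6.32 to 7.20 for Psmb10 and 2.17 to 5.34 for the PA28 genes with 1 library left out, and was 11.3, 1.54, 7.26 and 3.52 points without division by length. The cause of these shifts was not tested. With 3 libraries per arm, changes well above the SE could also go uncalled, as for Psmd1 at −0.13 with an SE of 0.04. The SE was as large as 0.17 for Psmb9 and Psme2b. An effect of the siRNA product lines cannot be told apart from the knockdown.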
